A study of Mus musculus with 6 samples.

Results

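Mouse genes whose symbol is Zfp followed by a number, with or without a letter after it, were read for their time of replication in cultured myeloid cells. Chromosomes 7, 8, 9, 10 and 13 carried 181 such protein-coding genes, of 6104 protein-coding genes on those chromosomes and 21631 on the autosomes and X. A gene was called clustered when the midpoint of another Zfp gene lay within 200 kb of its own and lone otherwise, which gave 133 clustered and 48 lone genes. The rule used positions and names alone, and no measured value entered it. Membership rests on the symbol, and the domains of the proteins were not examined here.

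The series set 3 samples that lacked both Recql4 and Klhdc3 (Recql4 -/- Klhdc3 -/-) against 3 wild-type (WT) samples of HoxB8-immortalised mouse myeloid cells selected in GM-CSF. Genomic DNA of proliferating, unsorted cultures was sequenced, and timing was inferred from read depth, since early replicating DNA is present in more copies than late replicating DNA while cells are in S phase. The labels give a division time of 15 to 18 hours, over 25% of the cells in S phase and a target of 30-fold coverage. Recql4 encodes a helicase that acts when replication starts, and Klhdc3 encodes a substrate receptor of a ubiquitin ligase. The samples model immortalised progenitors in culture, and the sources used here do not say whether they were separate lines or cultures of 1 line.

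Nothing in the tables or labels said which of the 6 columns of values belonged to which sample. They are given as 6 unassigned profiles, A to F, with no comparison of the genotypes and no test. None of the profiles is known to repeat another, so the spread over profiles may hold genotype, culture and technical differences alike. Without the depth of each library, no counting interval could be computed.

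Most mouse Zfp genes encode C2H2 zinc finger proteins, and many carry a KRAB domain that recruits the scaffold protein TRIM28 and, through it, histone methylation and DNA methylation to the sites they bind. Tandem duplication has spread these genes into dense clusters that differ between rodents and primates. Many of the proteins silence retrotransposons, and a few act on imprinted genes. Early replication generally goes with gene-rich, open chromatin and late replication with gene-poor, compact chromatin.

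The promoters of 4 Zfp genes at the ends of the timing range are shown because CG dinucleotides, the sites of DNA methylation, are compared between early and late genes below. Each runs from 250 bases before to 50 bases after the annotated start (RefSeq, GRCm38.p6, the assembly of mm10), is written 5′ to 3′ on the gene's own minus strand, and has every CG in capitals. Zfp764 was the earliest clustered gene and Zfp141 the latest, Zfp131 the earliest lone gene and Zfp42 the latest, by their medians over the 6 profiles. The Zfp131 promoter is the first of 2 entries in the table.
Zfp764, chr7:127406773-127407072: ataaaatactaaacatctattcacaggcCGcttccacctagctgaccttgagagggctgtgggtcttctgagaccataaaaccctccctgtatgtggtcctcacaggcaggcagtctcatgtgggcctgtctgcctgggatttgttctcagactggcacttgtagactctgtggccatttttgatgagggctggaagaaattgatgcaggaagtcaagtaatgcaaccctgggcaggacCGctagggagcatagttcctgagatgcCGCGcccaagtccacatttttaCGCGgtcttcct
Zfp141, chr7:42505704-42506003: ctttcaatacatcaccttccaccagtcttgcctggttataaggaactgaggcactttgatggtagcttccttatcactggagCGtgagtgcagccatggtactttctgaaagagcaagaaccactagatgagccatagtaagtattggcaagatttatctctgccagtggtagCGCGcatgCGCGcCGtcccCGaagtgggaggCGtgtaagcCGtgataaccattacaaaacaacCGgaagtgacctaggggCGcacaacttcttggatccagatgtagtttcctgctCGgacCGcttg
Zfp131, chr13:119790683-119790982: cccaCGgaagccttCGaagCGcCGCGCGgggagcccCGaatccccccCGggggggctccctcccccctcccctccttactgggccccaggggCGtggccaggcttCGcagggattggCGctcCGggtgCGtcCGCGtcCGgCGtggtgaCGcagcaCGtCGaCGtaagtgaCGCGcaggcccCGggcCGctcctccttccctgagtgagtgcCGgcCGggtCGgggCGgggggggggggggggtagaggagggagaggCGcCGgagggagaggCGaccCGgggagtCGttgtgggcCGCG
Zfp42, chr8:43306960-43307259: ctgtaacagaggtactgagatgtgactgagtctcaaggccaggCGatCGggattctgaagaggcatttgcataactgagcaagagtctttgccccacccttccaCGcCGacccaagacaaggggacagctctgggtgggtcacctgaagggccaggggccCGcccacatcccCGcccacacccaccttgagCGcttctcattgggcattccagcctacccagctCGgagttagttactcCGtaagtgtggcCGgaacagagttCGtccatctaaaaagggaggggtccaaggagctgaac
The early Zfp764 promoter held 6 CG and the late Zfp141 promoter 13, so the earliest clustered gene had fewer CG than the latest. That contrast rests on a near tie. Zfp764 scored 1.5356, against 1.5355 at Zfp688 with 22 CG and 1.5346 at Zfp747 with 8 CG. Promoters of their cluster held from 6 CG to 35 CG (Zfp768). Among the lone genes, the early Zfp131 promoter held 36 CG and the late Zfp42 promoter 11. The rank of Zfp131 rests on A, B and C, where it scored 2.40 to 2.68, against 0.80 to 1.19 in D, E and F. The next earliest lone gene, Zfp143 at a median of 1.58, had 18 CG.

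Each gene was read at the window nearest its midpoint, at most 50 kb away. Windows were at least 10000 bp long. The deposited tables gave a timing score, smoothed by the authors and scaled to a mean of 0 and an SD of 1 in each profile over the autosomes, and an unsmoothed raw copy level, with autosomal medians between 1.96 and 1.98. A higher score or level stands for earlier replication. A value was found in each of the 6 profiles for 174 of the 181 genes, 128 clustered and 46 lone. The clustered Zfp781, Zfp936 and Zfp560 and the lone Zfp433 and Zfp640 had no value in any profile, and the clustered Zfp456 and Zfp429 had values in B, D, E and F only.

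Zfp genes replicated early for the most part. Of the 128 clustered genes, 109 scored above 0 in each profile (85.2%), as did 37 of the 46 lone genes (80.4%) and 75.5% of all genes of the 5 chromosomes. Scores were below 0 in each profile for 12 clustered genes (9.38%) and 6 lone genes (13%), against 17.3% of all genes. The remaining 7 clustered and 3 lone genes changed sign between profiles. At the very early end, with a median score above 1, stood 37 clustered genes (28.9%) and 23 lone genes (50%), against 35.1% of all genes.

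**Figure D1:**
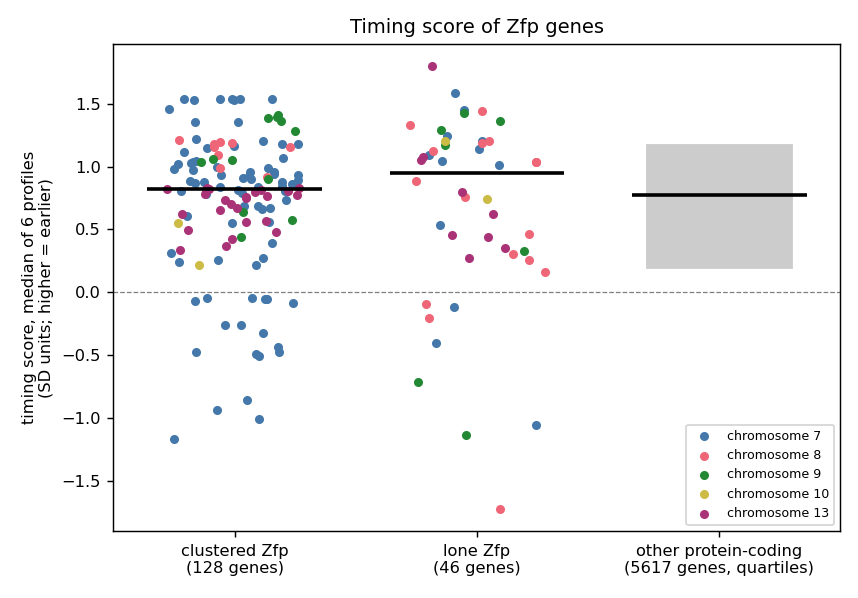
Timing score (median of the 6 profiles, SD units, higher is earlier) of each valued Zfp gene, as 128 clustered and 46 lone points coloured by chromosome, with the median as a bar. The grey box gives the quartiles of the 5617 other protein-coding genes of the same chromosomes. Clustered genes bunch near 0.82, while single lone genes hold the latest value of -1.72 (Zfp42) and the earliest of 1.80 (Zfp131, high in A, B and C only).

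The scores of clustered and lone genes overlapped over most of their range. Clustered genes had median scores of 0.80, 0.85, 0.88, 0.83, 0.90 and 0.71 in profiles A to F. Lone genes had 1.01, 0.97, 0.93, 0.80, 0.93 and 0.76, and the 5617 other genes 0.83, 0.81, 0.78, 0.74, 0.75 and 0.66. Lone genes thus had the higher median in 5 of the 6 profiles and clustered genes in D. The clustered median minus the lone median was -0.048 at the median over profiles (range -0.21 to 0.03), which is less than its SD of 0.084 over the 6 profiles. Its size and sign depended on the setting. It was 0.026 when clustered meant within 100 kb and 0.058 with chromosome 7 left out, but -0.136 within 500 kb, -0.18 with each cluster as 1 value, -0.211 without chromosome 8 and -0.136 without chromosome 13.

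On the raw copy level the clustered medians were 2.12, 2.11, 2.10, 2.08, 2.08 and 2.09 in profiles A to F, and the lone medians 2.18, 2.14, 2.11, 2.10, 2.11 and 2.13. Clustered genes were therefore lower in each of the 6 profiles, by a median difference of -0.032 (range -0.066 to -0.010). That difference was -0.0043 when windows within 50 kb were averaged and -0.0006 without chromosome 13, but -0.0642 without chromosome 8. The members also differed in spread: the middle 50% of clustered genes lay between scores of 0.55 and 1.05, and that of lone genes between 0.31 and 1.20. Zfp genes as a whole stood 0.075 above the other genes (range -0.0019 to 0.15), with lone genes 0.15 above them (0.06 to 0.18) and clustered genes 0.07 (-0.03 to 0.15).

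**Figure D2:**
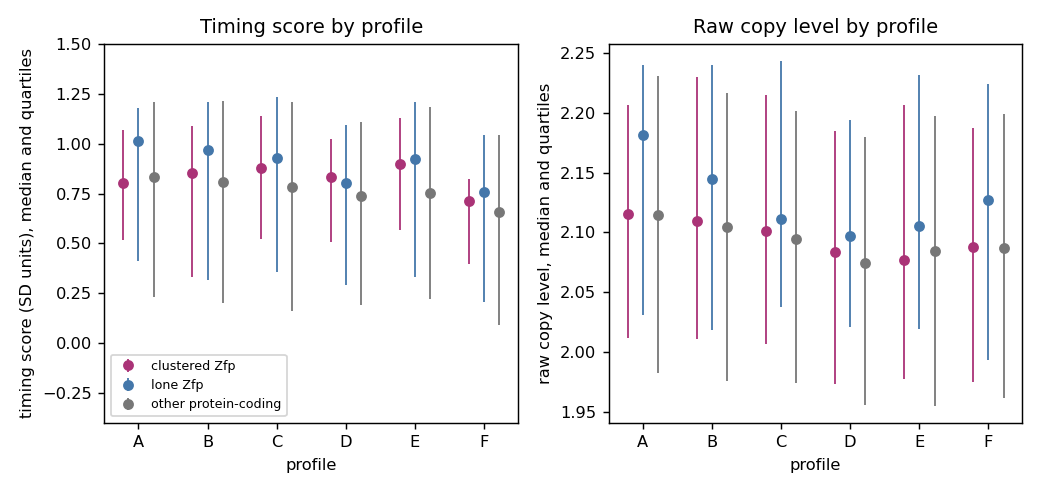
Median (point) and quartiles (line) of the timing score in SD units and of the raw copy level for clustered Zfp, lone Zfp and other protein-coding genes, by profile A to F. The raw medians of clustered genes lie below those of lone genes in each profile, and the quartile ranges overlap throughout.

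Chromosomes differed in which kind of gene was earlier. On chromosome 8, 9 clustered genes had a median score of 1.16 and 16 lone genes 0.82. On chromosome 13 the medians were 0.75 for 25 clustered genes and 0.62 for 9 lone genes. The order was the other way on chromosome 7, with 0.85 over 80 clustered and 1.07 over 12 lone genes. It was also the other way on chromosome 9, at 1.06 over 12 clustered and 1.17 over 7 lone genes, and on chromosome 10, at 0.38 over 2 clustered and 0.97 over 2 lone genes. Genes of a cluster share a locus, so these counts are not counts of independent sites.

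The 133 clustered genes formed 25 clusters, 16 of them on chromosome 7, with spans of 25.0 to 788 kb. Clusters of 2 genes numbered 8, and 11 clusters of at least 5 genes held 96 genes. Within a cluster the genes shared their score closely: the SD over genes of a cluster had a median of 0.05 and reached 0.24, against an SD of 0.63 between the medians of clusters and 0.77 between lone genes. Part of that likeness is made by smoothing, which shares values between neighbouring windows. On the raw level, read at 1 window per gene, the SD within a cluster had a median of 0.11. The SD between clusters was 0.0963, but it was taken between means over all windows of each cluster that were valued in every profile. These measures are unlike, so their sizes do not show how alike the genes of a cluster were.

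**Figure D3:**
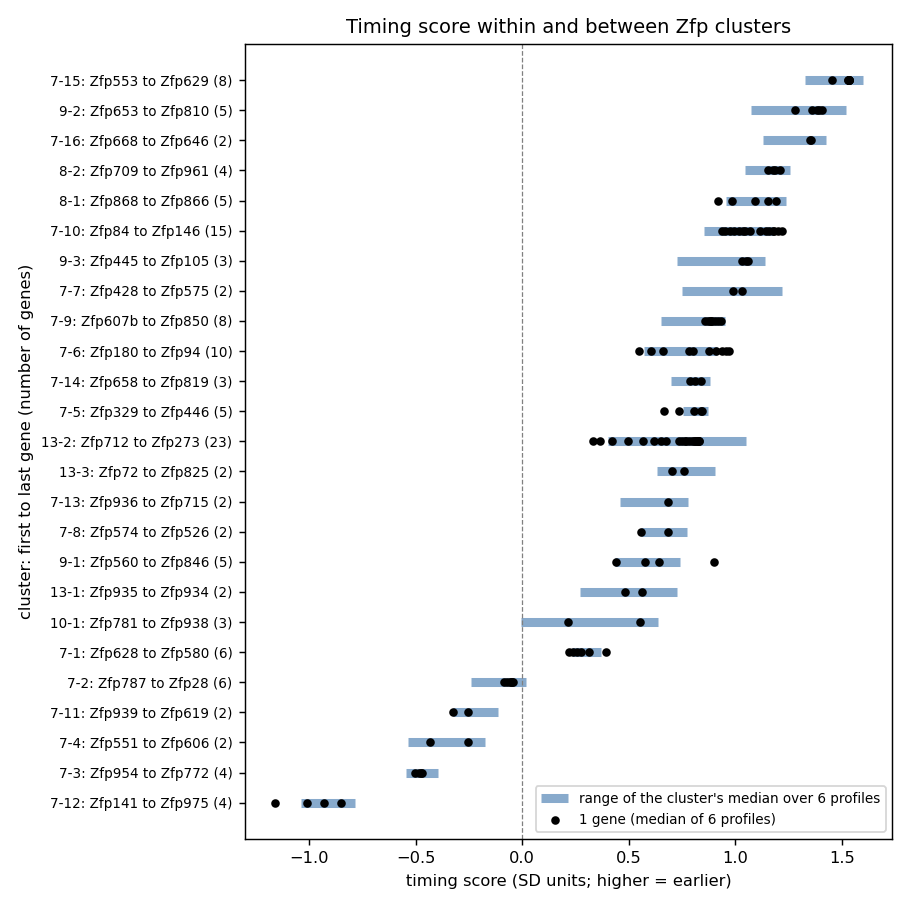
Timing score in SD units of the valued genes (points, median of the 6 profiles) of each of the 25 clusters, ordered from the earliest at the top to the latest at the bottom, with the range of the cluster's median over profiles as a blue bar. Clusters are numbered along each chromosome, and 4 of chromosome 7 lie wholly below 0.

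Of the 25 clusters, 19 had a median score above 0 in each profile, 4 were below 0 in each, and 2 were mixed. Of all genes of the 5 chromosomes, 75.5% were above 0 in each profile and 17.3% below. Counted by cluster, the shares were thus close to those of all genes. The earliest was the cluster from Zfp553 to Zfp629 (chromosome 7, 127233061 to 127615785), with scores of 1.60, 1.53, 1.57, 1.44, 1.53 and 1.33 in profiles A to F. It held the 3 earliest clustered genes, Zfp764 at 1.54, Zfp688 at 1.54 and Zfp747 at 1.53, and its latest gene was Zfp629 at 1.45. Next came the 5 genes from Zfp653 to Zfp810 on chromosome 9 (22055411 to 22307814), at 1.46, 1.35, 1.52, 1.21, 1.41 and 1.07, and the pair Zfp668 and Zfp646 on chromosome 7 at a median of 1.35. The 15 genes from Zfp84 to Zfp146 on chromosome 7 (29768552 to 30169775) scored 1.04, 1.18, 1.14, 1.01, 1.10 and 0.85, from 0.94 at Zfp84 to 1.22 at Zfp146. Each of these clusters lay above 0 in every profile.

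Several further large clusters lay in the early middle of the range. The 10 genes from Zfp180 to Zfp94 on chromosome 7 had a cluster median of 0.84, and 5 genes of chromosome 8, from Zfp868 at 0.92 to Zfp866 at 1.19, had one of 1.09. The 8 genes from Zfp607b at 0.86 to Zfp850 at 0.93 spanned 339.55 kb of chromosome 7 with almost no gradient. In contrast, within the cluster from Zfp560 to Zfp846 on chromosome 9, Zfp26 scored 0.44 and Zfp846 scored 0.90. The 6 genes from Zfp628 (0.40) to Zfp580 (0.22), near the start of chromosome 7, were the latest cluster that stayed above 0 in each profile.

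The 12 late clustered genes all lay in 4 clusters of chromosome 7. The cluster from Zfp141 to Zfp975 (42473386 to 42692810) was the latest, with scores of -0.96, -0.98, -0.83, -1.04, -0.78 and -1.02 in profiles A to F. Its 4 genes were Zfp141 at -1.16, Zfp977 at -1.01, Zfp976 at -0.93 and Zfp975 at -0.85. Raw levels at the Zfp141 window were 1.81, 1.80, 1.97, 1.75, 1.76 and 1.84, below the autosomal median in each profile. The other late clusters were those of Zfp954, Zfp773, Zfp418 and Zfp772 (median -0.48), of Zfp551 and Zfp606 (-0.34) and of Zfp939 and Zfp619 (-0.29). The first of these stood at 0.036 when raw levels within 50 kb were averaged and rescaled in place of the smoothed score. Raw levels at single windows of these other late genes were mixed. Medians over profiles were above the autosomal medians at Zfp954 (2.10), Zfp773 (2.03), Zfp772 (2.00), Zfp551 (2.08), Zfp606 (2.11) and Zfp619 (2.03). They were below them at Zfp418 (1.90) and Zfp939 (1.84). Mean raw levels over each whole cluster had medians of 1.99, 1.93 and 1.94, in the order given. The 6 genes from Zfp787 to Zfp28 (6131489 to 6396637) stood at the divide, with cluster scores of 0.02, -0.04, 0.00, -0.07, -0.08 and -0.24. On chromosome 7 as a whole, 12 of 80 clustered genes (15.0%) and 21.7% of all genes were below 0 in each profile.

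Late and early clusters of chromosome 7 lay close to one another. Zfp606, the end of a late cluster, ended at 12496235, and Zfp329, at the start of a cluster with a median of 0.81, began at 12803778. Likewise the latest cluster ended at 42692810, and the cluster of Zfp936 and Zfp715, with Zfp715 at 0.68, began at 43114166. Neighbouring clusters thus lay on opposite sides of 0.

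Raw levels were compared inside each cluster and in the 500 kb on each side. They were higher inside in each profile in 18 of the 25 clusters, lower in 4 and mixed in 3, at a median difference of 0.048. No share was computed for spans of like length elsewhere, so this count is not shown to be particular to clusters. The gap was widest for the 5 genes from Zfp329 to Zfp446, at 0.21 (range 0.19 to 0.23), and most negative for Zfp574 and Zfp526, at -0.12 (-0.13 to -0.099). Gene by gene, the raw level lay above the flanks in each profile for 55 of 131 clustered genes (42.0%), 21 of 46 lone genes (45.7%) and 42.9% of all genes, shares close to one another.

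Of the Zfp genes named for a known role, 4 were taken here as repressors of retrotransposons or of imprinted genes. Each scored above 0 in every profile, as did 83.9% of all valued Zfp genes. The other named genes, among them the late Zfp42 described below, were not sorted by this role, so the set may be incomplete. Zfp809, which silences retroviruses and retrotransposons in embryonic stem cells, scored 1.46, 1.35, 1.52, 1.21, 1.41 and 1.07 in profiles A to F. Zfp568, a repressor of a placental Igf2 transcript, scored 1.10, 1.23, 1.22, 1.07, 1.13 and 0.90. Both were above 0.8 in every profile. Zfp445, which keeps methylation at imprinted regions, scored 1.07, 1.07, 1.12, 1.00, 0.73 and 0.72, lower in E and F than in the others. Zfp708, which binds a class of retrotransposons, was the later of this set at 0.25, 0.14, 0.35, 0.45, 0.53 and 0.38, near the edge of its cluster on chromosome 13.

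Zfp110 and Zfp369 encode related proteins that bind a neurotrophin receptor. Zfp110 belonged to the cluster from Zfp329 to Zfp446 and scored 0.73, 0.74, 0.69, 0.80, 0.82 and 0.70. The lone Zfp369 scored 0.57, 0.31, 0.49, 0.40, 0.20 and 0.20. The values of the pair did not overlap, with the clustered gene the earlier of them.

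Lone Zfp genes reached further in both directions, mainly through single genes, Zfp42 at the late end and Zfp131 at the early end. The Zfp131 score was high in A, B and C only. In D, E and F the highest lone scores were 1.49, 1.56 and 1.42, against 1.46, 1.54 and 1.37 among clustered genes. After Zfp42, the latest lone median was -1.13 at Zfp317, against -1.16 at the clustered Zfp141. Zfp42, known as Rex1 and used as a marker of pluripotent cells, was the latest Zfp gene at -1.70, -1.78, -1.72, -1.72, -1.53 and -1.78 in profiles A to F, with raw levels of 1.52, 1.60, 1.67, 1.56, 1.64 and 1.50. Zfp296, another gene active in pluripotent cells, was at the other end, at 1.53, 1.58, 1.50, 1.27, 1.39 and 1.28. The other lone genes below 0 in each profile were Zfp317 (median -1.13), Zfp788 (-1.05), Zfp558 (-0.71), Zfp536 (-0.40) and Zfp330 (-0.20). Of these, Zfp536 is a brain-enriched repressor of neuronal differentiation and covers 456017 bp, the longest of the 181 genes. Zfp423, a transcription factor of neural and fat cell precursors, stood at 0.01, 0.14, 0.36, 0.33, 0.40 and 0.19, above 0 by little in A.

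Several lone genes with roles outside the KRAB family were early. Zfp143, an activator that binds many promoters, scored 1.62, 1.61, 1.67, 1.49, 1.56 and 1.31. Zfp365, linked to genome stability, scored 1.20, 1.23, 1.23, 1.03, 1.20 and 1.08. Zfp36 encodes tristetraprolin, a CCCH zinc finger protein that binds AU-rich mRNA and is active in myeloid cells, and scored 1.09, 1.10, 1.19, 0.91, 0.94 and 0.76. It shares the name but is not of the C2H2 type that most Zfp genes encode. The 3 of them were above 0.7 in each profile.

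The 200-kb rule had few genes near its limit. Just inside it were Zfp938, at 170 kb from the nearest Zfp gene and with a median score of 0.21, and Zfp629, at 166 kb and 1.45. Just outside it were Zfp433 at 203 kb, with no value, and Zfp808 at 308 kb and 0.27.

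The profiles gave like scores at most Zfp genes, and the exceptions were concentrated. Scores ranged over at least 0.5 units among the profiles at 16 of 128 clustered genes (12.5%) and 2 of 46 lone genes (4.35%), against 4.52% of all genes. Of the 16 clustered genes, 14 belonged to 1 cluster on chromosome 13, so the clustered count reflects mainly that locus. With profile B left out, 4 of the 18 Zfp genes were counted, and with profile E left out, 9. A range of at least 1 unit was found at 3 Zfp genes, Zfp873, Zfp808 and Zfp131, and at 0.259% of all genes.

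The largest cluster held 23 genes from Zfp712 to Zfp273 (chromosome 13, 67038594 to 67827000). Its median scores were 0.66, 0.41, 0.74, 0.89, 1.05 and 0.75 in profiles A to F, lowest in B and highest in E. Over the windows valued in every profile, its mean raw levels were 2.071, 2.059, 2.063, 2.064, 2.097 and 2.079, also lowest in B and highest in E. Their range was 0.037. The scores are medians over genes on another scale, so their spread cannot be set against that of these raw means. Those means leave out the 3 windows at Zfp456 and Zfp429 described below. There B stood at 1.24 to 1.68, and D, E and F at 2.08 to 2.43. Scores climbed along the cluster, from Zfp712 at a median of 0.33 to Zfp65 at 0.83. Zfp953 had the widest range of the cluster, at 0.51, 0.26, 0.59, 0.79, 0.95 and 0.76, and the adjoining Zfp595 scored 0.49, 0.24, 0.56, 0.76, 0.93 and 0.74.

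In the middle of this cluster 3 neighbouring windows set profiles A, B and C apart from D, E and F. At the window of Zfp456 (67368854 to 67380095) the raw level was 1.68 in B and 2.33, 2.33 and 2.35 in D, E and F. At the windows on Zfp429 it was 1.24 in B against 2.08, 2.12 and 2.15 (67380096 to 67390693), and 1.57 in B against 2.43, 2.36 and 2.27 (67390694 to 67402043). Profiles A and C had no value at any of the 3. The windows on either side were valued in all 6 profiles, with levels of 2.17 to 2.30 before the gap and 2.09 to 2.25 after it. Whether these windows bear on the scores of the neighbouring genes was not tested.

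**Figure D4:**
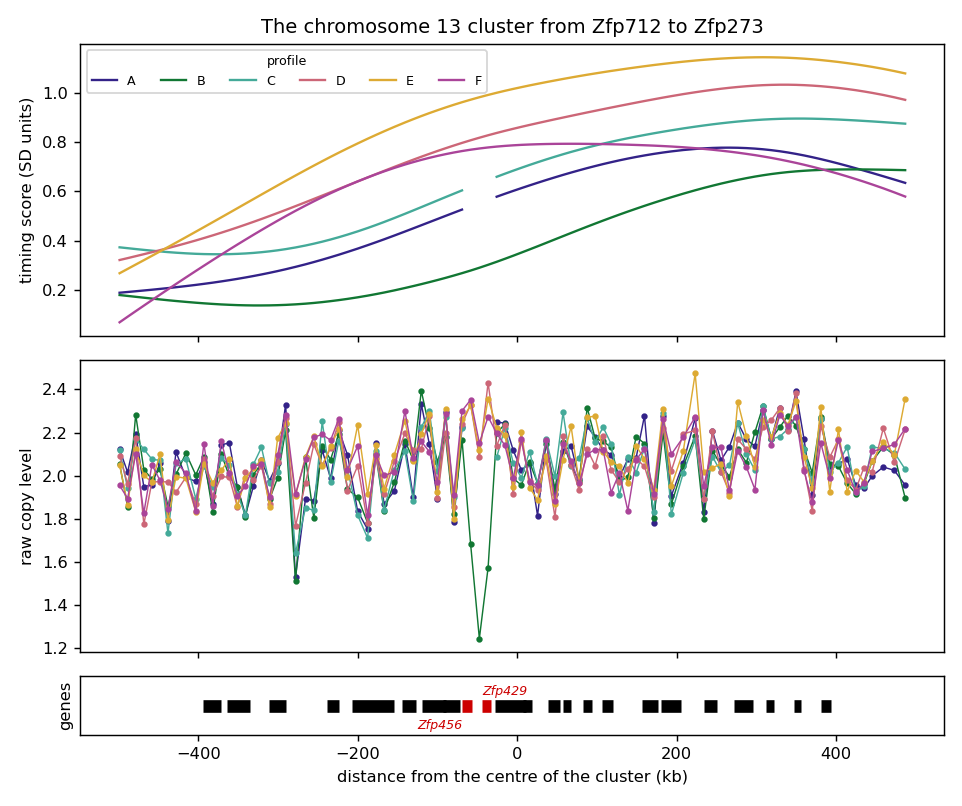
Timing score in SD units (top) and raw copy level (middle) of each window in profiles A to F against the distance in kb from the centre of the chromosome 13 cluster, with its 23 genes as blocks (bottom). Lines break where A and C had no value, at Zfp456 and Zfp429 (red), where the raw level of B reached 1.24.

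Another 2 clusters each held a single window with a raw range of at least 0.5. In the cluster of Zfp781, Zfp873 and Zfp938 on chromosome 10, the window from 82000022 to 82012092 had raw levels of 2.73, 2.69, 2.88, 2.00, 2.13 and 1.93 in profiles A to F. In the cluster of Zfp935 and Zfp934 on chromosome 13, the window from 62499139 to 62512148 had 2.40, 2.47, 2.41, 1.86, 1.86 and 1.83. In both windows A, B and C were high and D, E and F low, with no overlap. Neither window held a Zfp gene. With such windows left out, the range of the cluster's mean raw level over profiles was 0.079 in place of 0.12 for the first cluster and 0.12 in place of 0.16 for the second.

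Windows of this kind were 2 of 493 valued windows in Zfp clusters (0.406%), against 0.0620% of all windows of the 5 chromosomes. Windows valued in only part of the profiles were 4 of 508 in clusters (0.787%), against 0.360% of all, and 3 of the 4 were those at Zfp456 and Zfp429. The other lay at Zfp180 and Zfp112, with no value in C and raw levels of 2.69 to 2.89 in the rest. Windows with no value in any profile were 11 of 508 (2.17%), against 1.03% of all, and 7 of the 11 lay in the cluster of Zfp936 and Zfp715. The SD of single windows around the smoothed curve was 0.133 to 0.144 in raw level inside clusters and 0.122 to 0.127 outside them.

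The 3 genes whose scores ranged over at least 1 unit had higher scores in A, B and C than in D, E and F. Zfp873 scored 0.77, 0.70, 1.00, 0.14, 0.41 and -0.04 in profiles A to F. Its mean raw level over the 9 windows within 50 kb was 2.10, 2.08, 2.07, 2.01, 2.05 and 1.99, also without overlap. The lone Zfp808, which had unvalued windows around it, scored 0.60, 0.84, 0.89, -0.18, -0.06 and -0.30. Its mean raw level within 50 kb, over 6 of 8 windows, was 2.20, 2.25, 2.26, 1.89, 1.96 and 1.87, so its raw levels and scores split the profiles the same way. The highest level of any window within 50 kb was 2.76, and its bearing on these means was not tested. At the window nearest its midpoint Zfp808 stood at 2.22, 2.18, 2.28, 2.02, 2.01 and 1.90, again without overlap. Its median score of 0.27 depended on the profiles taken, at -0.056 with A, B or C left out and 0.598 with D, E or F left out.

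Zfp131, whose protein has a BTB domain, scored 2.40, 2.68, 2.67, 0.80, 1.19 and 0.98 in profiles A to F, the earliest Zfp gene in A, B and C but not in D, E and F. Its median of 1.80 was 1.19 with A, B or C left out, below the median of 1.58 at Zfp143, and 2.40 without D, E or F. The raw level of Zfp131 was 2.28, 2.32, 2.39, 2.12, 2.25 and 2.22 at its own window and 2.13, 2.15, 2.12, 2.04, 2.09 and 2.08 over the 10 windows within 50 kb, with A, B and C above D, E and F and no overlap in either. Rescaled like the score, the level within 50 kb had a median of 0.70 (range 0.43 to 0.92). In A, B and C a window 163 kb away stood at raw levels of 14.2, 13.8 and 13.7, and it had no value in the other profiles. The part of that distant window in the scores at Zfp131 was not tested.

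The surroundings of clustered and lone Zfp genes were described as well. A clustered gene had a median of 29 protein-coding genes within 500 kb, against 16.5 for a lone gene and 17 for another gene. That count includes the fellow Zfp genes that the rule requires near a clustered gene, and none was made without them. It therefore does not show whether the surroundings were gene-rich apart from the clusters themselves. Gene length had a median of 14995 bp for clustered genes, 21406 bp for lone genes and 15022 bp for other genes. Windows missing a value within 250 kb had a median of 1 at clustered genes and 0 at lone and other genes.

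Late Zfp genes often had chemoreceptor genes near them, the olfactory and vomeronasal receptors (Olfr, Vmn1r and Vmn2r) that are active in sensory neurons. This set was chosen after the values were seen. At least 1 such gene lay within 500 kb of 10 of the 12 late clustered Zfp genes (83.3%) and of 31 of the 109 early ones (28.4%). Among lone Zfp genes the counts were 3 of 6 late and 7 of 37 early (18.9%). Among other genes, chemoreceptors themselves left out, the shares were 17.1% of 563 late and 9.29% of 4122 early genes. The 12 late clustered genes sit in 4 clusters of chromosome 7, so these counts stand for few sites. The genes compared with them came from all 5 chromosomes. Within 500 kb of each whole cluster, the late clusters had 6, 13, 0 and 6 chemoreceptor genes, in order of position. Some early clusters had as many, with 12 at Zfp329 to Zfp446, 13 at Zfp180 to Zfp94 and 13 at Zfp560 to Zfp846. Many other early clusters had none.

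Promoter CG content was compared between late and early genes. RefSeq entries were found for 120 clustered and 39 lone genes. The 300-base promoters of clustered genes held a median of 12 CG (GC 53.8%), those of lone genes 18 CG (GC 59.7%) and those of other genes 12 CG (GC 56.0%). At least 10 CG, counted as the letters CG on 1 strand, were found in 78 clustered promoters (65.0%), 30 lone promoters (76.9%) and 55.6% of all promoters of the 5 chromosomes. The 18 late Zfp genes had a median of 11 CG, with 12 of them at 10 or more (66.7%), and the 124 early ones had 14 CG, with 85 at 10 or more (68.5%). Among other genes with chemoreceptors left out, the late ones had a median of 7 CG, with 42.4% of 458 at 10 or more, and the early ones 17 CG, with 68.6% of 3388. With chemoreceptors, which are many among late genes, the late median was 2 CG, with 23.7% of 820 at 10 or more. The gap between late Zfp genes and other late genes therefore depended on which other genes were taken. The late Zfp141 and Zfp42 promoters printed above, with 13 and 11 CG, lie above the medians of other late genes and below that of other early genes.

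**Figure D5:**
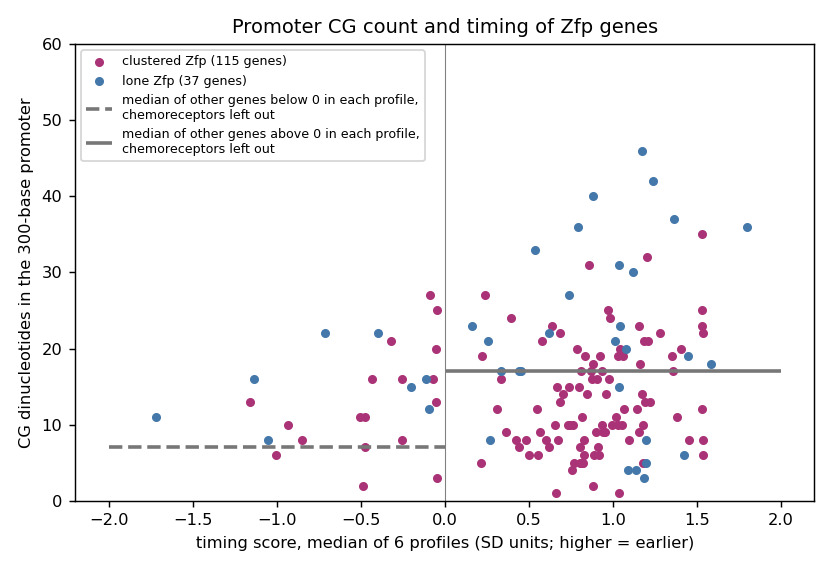
Number of CG dinucleotides in the 300-base promoter against the timing score (median of the 6 profiles, SD units) for 115 clustered and 37 lone Zfp genes with a score and a promoter entry. The dashed and solid lines mark the medians of the other genes with chemoreceptors left out, 7 CG for those below 0 in each profile and 17 CG for those above 0. Late Zfp genes, with a median of 11 CG, lie around and above the dashed line.

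Genes for the partners of KRAB zinc finger proteins lay mainly in early DNA, as did autosomal genes in general, and the 2 sets were not tested against each other. Of 20 listed cofactor and heterochromatin genes, 19 were valued in each profile, of which 17 were above 0 in each and 2 below, against 76.4% of autosomal genes above 0. Their median score was 0.92, against 0.82 for all 18063 valued autosomal genes. Trim28, the scaffold that KRAB domains bind, lies on chromosome 7 (13024152 to 13031032), next to the cluster from Zfp329 to Zfp446, and scored 0.85, 0.82, 0.74, 0.77, 0.90 and 0.77. Its median of 0.80 is within the range of these Zfp neighbours (0.67 to 0.84). Setdb1, the histone methyltransferase that TRIM28 recruits, scored 1.56, 1.66, 1.69, 1.58, 1.58 and 1.39, and Dnmt1, which maintains DNA methylation, 1.42, 1.34, 1.51, 1.44, 1.42 and 1.28. The 2 late ones were the histone deacetylase gene Hdac2, with a median of -0.79, and the chromatin remodeller gene Smarcad1, with one of -0.69. Dnmt3a, a methyltransferase that sets new DNA methylation, had no value in D and E.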

How the data were processed

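Genomic DNA of 6 cultures was sequenced, and 2 headerless tables over 237602 windows were used, each with 6 unnamed columns of values. The authors deposited a normalised raw copy level and a smoothed timing score, and both are taken as scores without a unit, since no header or label names one. Over autosomal windows each smoothed column averaged 0.000, with an SD of 1.000. The submitters' processing notes name the build mm10 and Picard 2.23.9, and the series title names TIGER, which infers timing from depth. How reads were aligned, corrected for GC, filtered by window and smoothed is not given in the sources used here, nor is how reads of duplicated sequence, common in gene clusters, were treated.

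From these tables, genes were placed by RefSeq midpoints (GRCm38.p6) and read at the nearest window within 50 kb. Group medians, counts and differences were computed per profile with Python 3.11.15, pandas 2.3.3 and numpy 2.4.6, figures with matplotlib 3.10.9, and the scripts were tested on simulated data. The planned genotype test was not run because no column could be tied to a sample, and no column of values was left unused (0). Members and lists were chosen with earlier results of these data known. Named genes were the 3 earliest and 3 latest clustered and lone genes, the 3 of each with the widest range, the ends of each cluster of at least 5 genes and 14 genes of known role. Other genes were named to account for counts, after their values were seen. Protein features and genome GC were not used here.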

Additional observations from a re-analysis of the deposited data

Results flagged for a closer look

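Of 56 values checked over the 6 profiles, 1 had a profile far from the others. The mean raw level of the cluster of Zfp954, Zfp773, Zfp418 and Zfp772 on chromosome 7 was 1.93 in profile D, against 1.98 to 2.00 in the other 5 profiles. Its gap to the nearest other profile was 0.712 of the whole range, above the critical value of Dixon's test for 6 values. Chance alone puts about 1 in 20 such groups past this limit, and the profiles are not known replicates.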

How the results depend on the processing

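No paired analysis was possible because nothing ties a column to a replicate, and the planned genotype fit and its replicate block were not run for the same reason. Library depth is unknown here, so its limit shows only in the scatter of single windows (SD 0.122 to 0.144). The clustered minus lone score (-0.048) turned sign within 100 kb (0.0258) and without chromosome 7 (0.0576). It was -0.136 within 500 kb, -0.18 with each cluster as 1 value, -0.211 without chromosome 8, -0.136 without chromosome 13, and -0.0499 to -0.0454 with a profile left out. The raw difference (-0.032) was -0.0043 over windows within 50 kb, -0.0085 over windows that overlap the gene, -0.0642 without chromosome 8, -0.0006 without chromosome 13, and -0.0358 to -0.028 with a profile left out. Zfp genes minus other genes kept its sign and moved by less than the spread over profiles under each alternative run. Members with a score range of at least 0.5 numbered 18, or 3 at a limit of 1, and 4 (without profile B) to 18 with a profile left out (9 without E). Clusters above 0 in each profile numbered 17 on rescaled raw levels, in place of 19. Rescaled raw levels turned the sign of the cluster from Zfp954 to Zfp772 (0.0356) and of Zfp787 (0.0656), and Zfp808 ranged from -0.056 (without profile A, B or C) to 0.598 (without D, E or F). Counting these, 208 of 225 values under alternatives for clusters and 387 of 423 for named genes moved by less than the spread over profiles. Most of those alternatives left out 1 profile, which can move a median only to a neighbouring middle value. The tallies therefore do not show how robust the values are to processing. For clusters, the 16 values that moved further and the 1 that turned sign all came from alternatives that kept every profile. Other late genes with at least 10 promoter CG were 42.4% without chemoreceptors and 23.7% with them. Leaving out chemoreceptors, the nearest valued window, the cluster as 1 value for raw levels, and the alternatives for single clusters and named genes were added after seeing the data.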
